A study of Mus musculus with 18 samples.

Results

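Basement membranes are thin sheets of matrix proteins, and 10 genes of their laminin core and its partners were followed here in mouse hippocampal cultures: Lama2, Lama5, Lamb1, Lamb2, Lamc1, Nid1, Nid2, Hspg2 (perlecan), Agrn (agrin) and Dag1 (dystroglycan). The 10 genes are 10 of the 12012 genes of the deposited table. They were chosen by name, with the results of the KO CSPG and WT CSPG comparison already known, and each had to have a row in a table whose lowest mean normalised value is 40.7. The fold changes and p-values of the comparison therefore describe these genes and test nothing about them as a set.

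The study asked how loss of Fibcd1, a receptor that binds chondroitin sulphate chains, alters the response of neurons to chondroitin sulphate proteoglycans (CSPGs), the extracellular matrix proteins that were coated under the cultures. Both groups analysed here are primary hippocampal cultures from E18.5 embryos on the CSPG coating, one from wild-type mice (WT CSPG, n = 4, replicates A to D) and one from Fibcd1 -/- mice (KO CSPG, n = 4, replicates A to D). The Fibcd1tm1Lex line, which lacks Fibcd1 from the germline on, was kept on C57BL/6J. A replicate was a preparation of cells, and which embryos or litters entered each is not given in the sources used here. Of 18 libraries labelled in all, the 5 WT and 4 KO libraries without the coating and 1 of the 5 WT CSPG libraries were not analysed here, so no value below measures an effect of the coating.

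Laminins are secreted as trimers of an alpha, a beta and a gamma chain. The alpha chain binds receptors on cells, and trimers join to each other in a sheet. Nidogens link that sheet to collagen IV and perlecan, agrin attaches to laminin and to dystroglycan, and dystroglycan holds laminin, agrin and perlecan at the cell surface through its sugar chains. In the brain these proteins line vessels and the pial surface, and neurons also make agrin and dystroglycan.

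Each library had between 10099564 and 11647202 reads over the genes of the table. Fibcd1 had 52 to 179 reads in the WT CSPG libraries and 1 to 7 in the KO CSPG libraries, which fits the labels. The labels give the cells as neurons. Neuron markers were present for 12 of 12 listed genes and astrocyte markers for 10 of 10, while 2 of 12 endothelial markers had a row (Kdr and Slco1c1) and Pecam1, Cdh5 and Cldn5 had none. The summed values of 4 Y-linked genes were higher in every WT CSPG library (log2 10.6 to 10.9) than in any KO CSPG library (9.78 to 10.1), and genotype accounted for 91.2% of the variance of this measure, so it and the genotype cannot be told apart. A value in such bulk RNA does not tell fewer cells of a type from less RNA per cell.

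Agrin and dystroglycan mRNA stood far above the laminin chains when levels were set per transcript length. Levels are given as RPKM, reads per kb of gene length scaled to the reads over the table. The level of Agrn was 56.9 ± 1.46 (SD, n = 8 libraries) and that of Dag1 was 42.2 ± 0.988, at percentiles 93.6 and 90.4 of all genes. The gamma chain Lamc1 (8.58 ± 0.965) and the beta chains Lamb1 (8.13 ± 0.580) and Lamb2 (5.78 ± 0.686) followed, near or under the median level of all genes, 8.78. Nidogens came next, with a level of 3.28 ± 0.683 for Nid2 and 2.52 ± 0.324 for Nid1. The alpha chains Lama2 (1.10 ± 0.142) and Lama5 (1.05 ± 0.206) and perlecan (0.601 ± 0.114, percentile 0.699) had the lowest levels. Neighbours in this order kept it in 8 of 8 libraries except for 3 pairs. Lamc1 was above Lamb1 in 6 of 8 libraries, Nid2 above Nid1 in 6 of 8, and Lama2 above Lama5 in 3 of 8. Nid2 was below Nid1 in KO CSPG replicates B and D, and Lama2 was above Lama5 in KO CSPG replicates A, B and D. The order of Nid2 and Nid1 in KO CSPG replicates B and D depends on the gene length used. With exon lengths of the GENCODE M21 annotation the mean ratio of Nid2 to Nid1 was 1.43, against 1.32 with the deposited lengths.

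**Figure D1:**
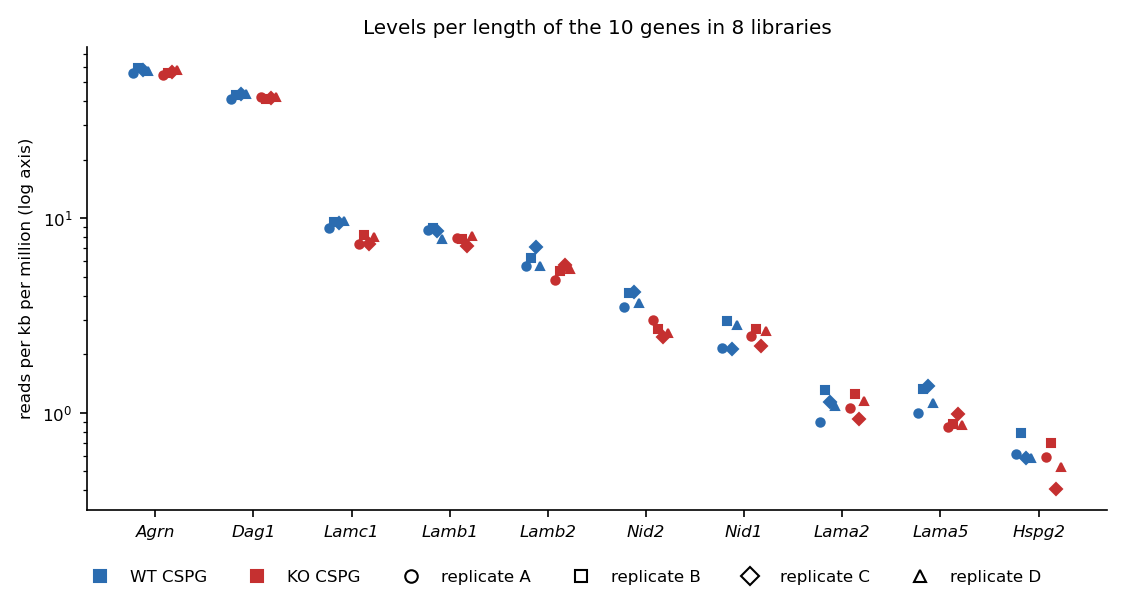
Level of each gene in each library, in RPKM on a log axis, with 1 symbol per replicate and 1 colour per group. Agrn and Dag1 lie above 40, the laminin beta and gamma chains between 5 and 10 on average, and Hspg2 lowest at 0.601.

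Of the 11 laminin chain genes of the mouse, 5 had a row: 2 alpha chains, 2 beta chains and 1 gamma chain. Chains without a row, such as Lama1, Lama3 and Lama4, cannot be given a level, since the table leaves out genes of low mean value. With the chains that had a row, the trimers that could form are laminin-211 (Lama2, Lamb1, Lamc1), laminin-221 (Lama2, Lamb2, Lamc1), laminin-511 (Lama5, Lamb1, Lamc1) and laminin-521 (Lama5, Lamb2, Lamc1). Messenger RNA levels do not show which of these were assembled or secreted.

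All 10 genes had a lower mean in KO CSPG than in WT CSPG, and 3 of them passed the test across all genes: Nid2, Lama5 and Lamc1. The test was limma on log2(normalised value + 1), with Benjamini-Hochberg adjusted p under 0.05 as the threshold. Among all 12012 genes, 2.88% passed it in either direction and 1.79% passed it with lower values in KO CSPG. The same 3 genes were those whose 4 KO CSPG libraries all lay below the 4 WT CSPG libraries, a pattern that 5.17% of all genes showed. Over the 10 genes the median log2 fold change, taken as KO CSPG relative to WT CSPG throughout, was -0.18. It was 0.00 over all genes, of which 49.9% were below 0. At an unadjusted p under 0.05, 5 of the 10 genes and 16.2% of all genes passed. The highest library of every one of the 10 genes was a WT CSPG library, most often replicate B (5 genes), and the lowest was a KO CSPG library for 8 of them. The share of all genes with such a pattern was not computed, so these counts only describe the 10 genes. With the Y-linked sum as a covariate 2 of all 12012 genes passed the test and 825 had an unadjusted limma p under 0.05. Of the 10 genes, 0 passed and 6 had such an unadjusted p. These were Lama2, Lama5, Lamc1, Nid1, Nid2 and Hspg2, without Lamb1 and Lamb2. In a fit without a trend in the prior variance only Nid2 of the 10 passed, beside 80 (0.67%) of all genes.

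**Figure D2:**
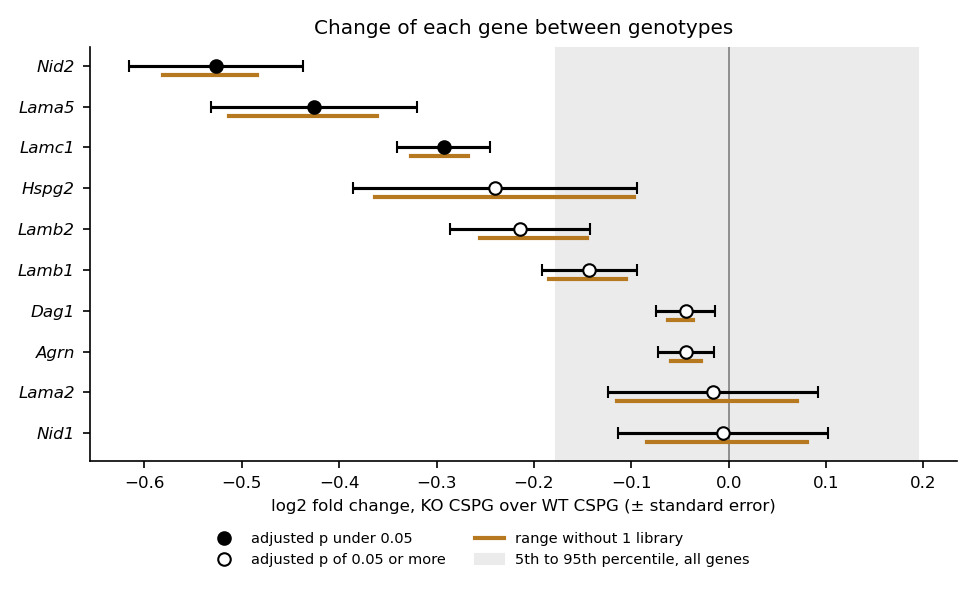
Log2 fold change, KO CSPG relative to WT CSPG, for the 10 genes, with standard errors, ordered by fold change. Filled symbols mark an adjusted p under 0.05. Brown bars give the range when 1 library was left out, and the grey band spans the 5th to 95th percentile of all genes. All points lie below 0, from -0.01 for Nid1 to -0.53 for Nid2, and the filled ones are Lama5, Lamc1 and Nid2.

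Of the alpha chains, Lama5 was lower in KO CSPG and Lama2 was not separable between the groups. Lama5 (ENSMUSG00000015647, chr2:180176373-180225859, minus strand, GRCm38) encodes the alpha 5 chain of endothelial and epithelial basement membranes. Its normalised values in WT CSPG replicates A to D were 123, 165, 169.7 and 139.6, and in KO CSPG replicates A to D 104, 108, 122 and 107. The groups did not overlap, but the lowest WT CSPG library (A, 123.3) and the highest KO CSPG library (C, 121.7) were nearly level. The mean fell from 149 ± 21.8 (SD, n = 4) to 110.2 ± 7.88, a log2 fold change of -0.43 (SE 0.11, limma adjusted p = 0.0259). Only 107 to 175 reads lay behind each value, and the call held in 3 of the 8 fits that left out 1 library. It was lost without WT CSPG replicate B or C and without KO CSPG replicate A, B or D, with adjusted p of 0.0578 to 0.116. Over all 8 such fits the log2 fold change was between -0.51, without WT CSPG replicate A, where the call held, and -0.36, without WT CSPG replicate C.

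Lama2 (chr10:26980036-27619758, minus strand), the alpha 2 chain of muscle, nerve and brain vessel basement membranes, had values of 159, 234, 202 and 194 in WT CSPG, against 187, 221, 165 and 204 in KO CSPG. Its lowest and highest libraries were both WT CSPG, and the groups overlapped throughout. The means were 197 ± 30.8 and 194 ± 24.1, with a log2 fold change of -0.02 (SE 0.11, adjusted p = 0.963). Leaving out 1 library moved this value between -0.11 and 0.07, so it has no firm sign.

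The beta chains had lower means in KO CSPG without passing the test. Lamb1 (chr12:31265234-31329644, plus strand), the beta chain shared by laminin-211 and laminin-511, had values of 941, 971, 920.4 and 842 in WT CSPG, against 845, 846, 769 and 867 in KO CSPG. WT CSPG replicate D lay below 3 of the 4 KO CSPG libraries, and the other 3 WT CSPG libraries lay above them all. Its log2 fold change was -0.14 (SE 0.05, adjusted p = 0.117). Lamb2 (chr9:108479736-108490530, plus strand), the beta chain of laminin-221 and laminin-521, which is known from the neuromuscular junction and the glomerulus, had values of 377, 416, 471 and 375 in WT CSPG, against 317, 353, 378 and 360.2 in KO CSPG. Its groups overlapped through KO CSPG replicate C, and its log2 fold change was -0.21 (SE 0.07, adjusted p = 0.114). Without WT CSPG replicate D both beta chains passed the test, with adjusted p of 0.0237 for Lamb1 and 0.0459 for Lamb2.

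Lamc1 (ENSMUSG00000026478, chr1:153218922-153332786, minus strand) encodes the gamma 1 chain, which all 4 trimers named above contain. Its values in WT CSPG were 805, 865, 846 and 874, and in KO CSPG 656, 741, 657 and 714. Every KO CSPG library lay below every WT CSPG library. The mean fell from 847 ± 31.0 to 692 ± 42.3, a log2 fold change of -0.29 (SE 0.05, limma adjusted p = 0.000584), which is a difference of -18.4%. The call held in 8 of 8 fits that left out 1 library, with log2 fold changes from -0.33 to -0.27.

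Of the nidogens, Nid2 was lower in KO CSPG and Nid1 was not separable between the groups. Nid2 (ENSMUSG00000021806, chr14:19751257-19811787, plus strand), which encodes nidogen 2, had values of 185, 221, 221 and 195 in WT CSPG, against 159, 144, 129.8 and 137 in KO CSPG. The groups did not overlap, with KO CSPG replicate A (159) nearest to WT CSPG replicate A (185). The mean fell from 205 ± 18.5 to 142 ± 12.5, a log2 fold change of -0.53 (SE 0.09, limma adjusted p = 0.000799), and the call held in 8 of 8 fits without 1 library. Nid1 (chr13:13437602-13512275, plus strand), which encodes nidogen 1, had values of 142, 197, 139.7 and 186 in WT CSPG, against 163, 178, 144 and 172 in KO CSPG. Here all 4 KO CSPG values lay inside the WT CSPG range. Its log2 fold change was -0.01 (SE 0.11, adjusted p = 0.987), between -0.08 and 0.08 when 1 library was left out. Exons of Nid2 share 437 bases with Rtraf on the opposite strand, and whether reads were counted by strand is not given in the sources used here. Rtraf itself had a log2 fold change of 0.02 (SE 0.05, adjusted p = 0.899).

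Perlecan, agrin and dystroglycan did not pass the test. Hspg2 (chr4:137468769-137570630, plus strand) encodes perlecan, a large heparan sulphate proteoglycan that binds laminin and nidogen. Its values were 96.1, 123, 91.2 and 91.7 in WT CSPG, against 91.1, 109, 62.4 and 81.5 in KO CSPG. Replicate B was the highest library of each group, and the groups overlapped, with a log2 fold change of -0.24 (SE 0.15, adjusted p = 0.450). It was -0.10 without KO CSPG replicate C, -0.14 without WT CSPG replicate B and -0.36 without KO CSPG replicate B, and it passed the test in none of the 8 fits that left out 1 library.

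Agrn (chr4:156165290-156197488, minus strand) encodes agrin, a heparan sulphate proteoglycan that clusters acetylcholine receptors at the neuromuscular junction. Its values were 5642, 6008, 5831 and 5799 in WT CSPG, against 5459, 5648, 5666 and 5807 in KO CSPG. The ranges overlapped, with KO CSPG replicate D above WT CSPG replicate A, and the log2 fold change was -0.04 (SE 0.03, adjusted p = 0.491). Dag1 (chr9:108204634-108263958, minus strand), which encodes both dystroglycan subunits, had values of 2842, 2985, 2991 and 3001 in WT CSPG, against 2897, 2824, 2836 and 2902 in KO CSPG. Only WT CSPG replicate A lay within the KO CSPG range. Its log2 fold change was -0.04 (SE 0.03, adjusted p = 0.520).

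**Figure D3:**
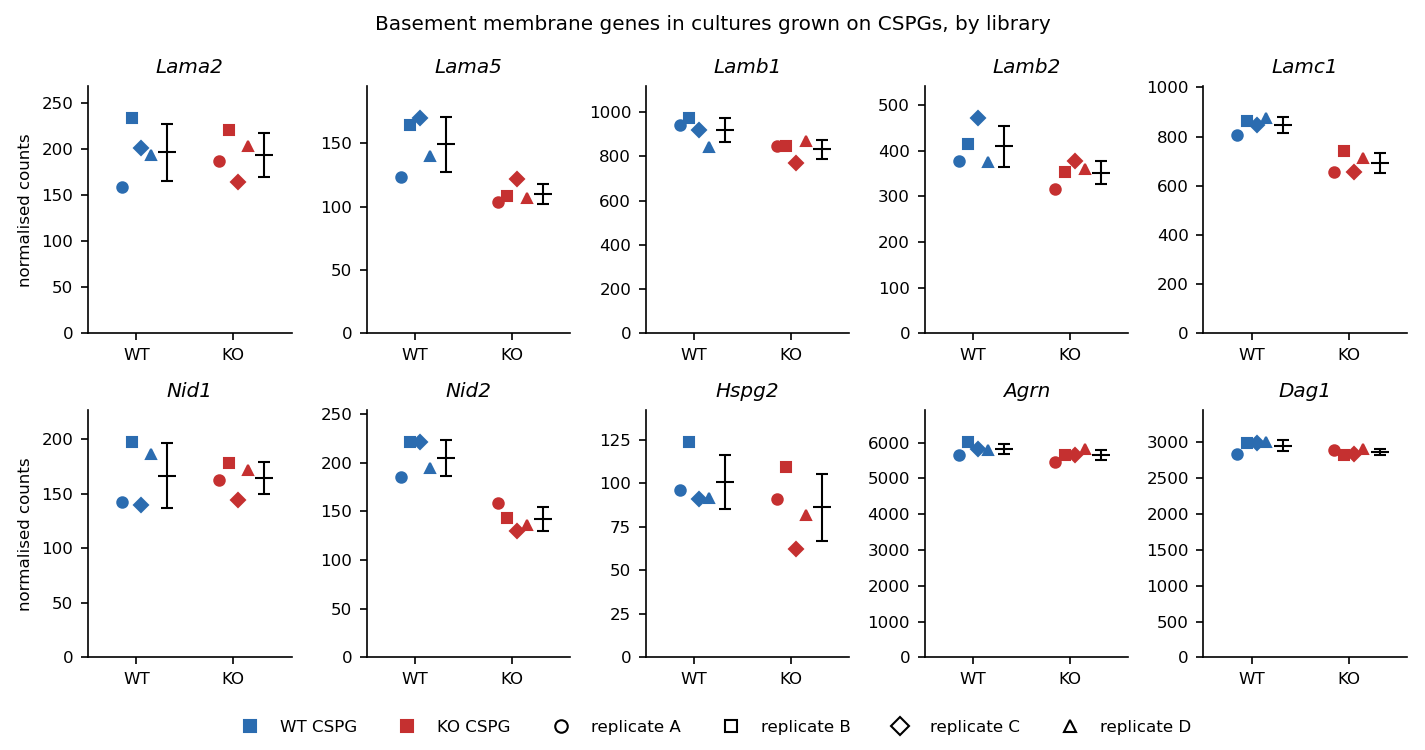
Normalised value of each of the 10 genes in each library, with 1 panel per gene, axes that start at 0, and the mean ± SD of each group (n = 4). Lama5, Lamc1 and Nid2 separate the groups, and Lama2, Nid1 and Hspg2 spread widely within each group.

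The balance of beta, gamma and summed alpha chains within a library overlapped between the groups. Lamb1 was the main beta chain in every library, at 1.42 ± 0.144 times the level per length of Lamb2 (SD, n = 8), with a mean ratio of 1.38 in WT CSPG against 1.46 in KO CSPG. The level of Lamc1 was 0.616 ± 0.0479 of the summed beta chains. The 2 alpha chains with a row together reached 0.251 ± 0.0212 of Lamc1, and alpha chains without a row are not in that sum. Both ratios overlapped between the groups. The summed level of the 5 chains was 25.3 to 27.7 RPKM in WT CSPG and 21.99 to 23.6 in KO CSPG, which did not overlap. Since this sum contains Lamc1 and Lama5, it adds no evidence to their own values.

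Ratios within the alpha chains and within the nidogens lay further apart between the groups. Lama2 relative to Lama5 was 0.898, 0.991, 0.828 and 0.967 in WT CSPG and 1.26, 1.42, 0.943 and 1.33 in KO CSPG. Lama5 was thus the higher of these 2 alpha chains in all 4 WT CSPG libraries and in KO CSPG replicate C, and Lama2 in the other 3. Nid2 relative to Nid1 was 1.61, 1.39, 1.96 and 1.29 in WT CSPG and 1.21, 0.998, 1.12 and 0.985 in KO CSPG. These 2 ranges did not overlap, and with the deposited gene lengths the level of Nid2 was close to that of Nid1 in KO CSPG. Since the genes were chosen with these values known, no test is given for the ratios.

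**Figure D4:**
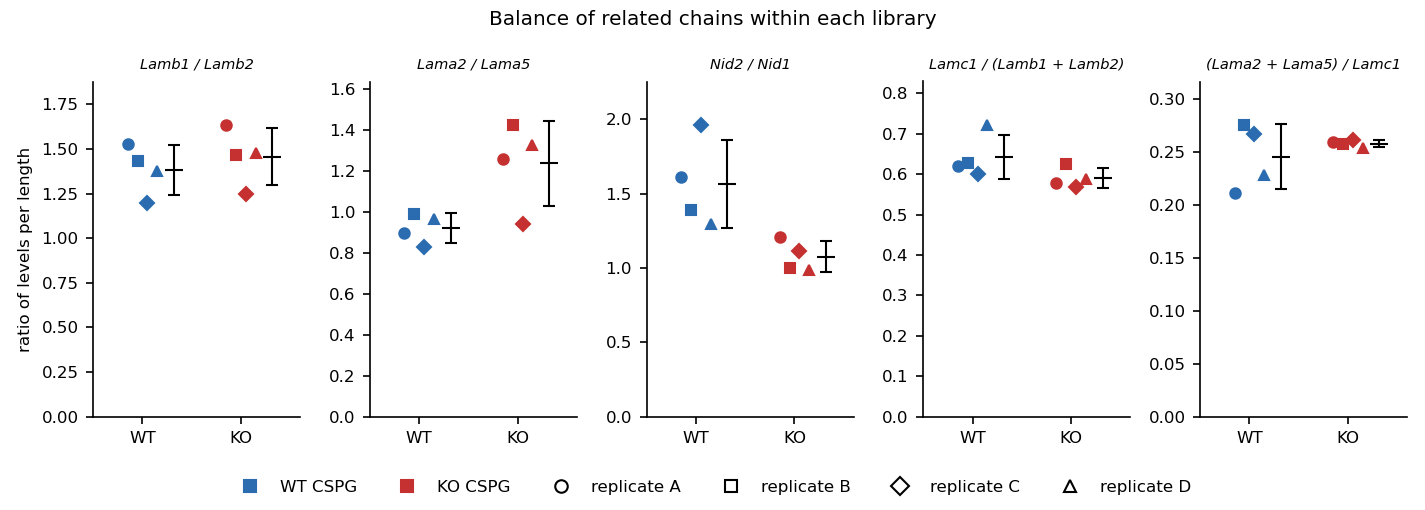
Ratios of levels per length within each library for 5 pairs or sums of chains, with the mean ± SD of each group (n = 4). Nid2 / Nid1 separates the groups (1.29 to 1.96 against 0.985 to 1.21), and the ratios among the beta, gamma and summed alpha chains overlap.

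Markers of vessel and other matrix-making cells are set beside these values because such cells make much of the laminin and nidogen of the brain. The 2 endothelial markers with a row of 12 listed summed to 303 to 322 in WT CSPG and 258 to 277 in KO CSPG, ranges that did not overlap, in the direction of Lama5, Lamc1 and Nid2. Slco1c1 made up most of that sum (239 to 257 in WT CSPG, 219 to 223 in KO CSPG), Kdr overlapped between the groups (47.5 to 82.5 against 36.8 to 54.1), and neither passed the test (adjusted p = 0.225 and 0.190). The other 10, Pecam1, Cdh5 and Cldn5 among them, had no row. Mural cell markers (5 of 11 with a row) summed to 551 to 667 in WT CSPG and 650.3 to 789 in KO CSPG. Oligodendrocyte lineage markers (8 of 8) summed to 1087 to 1403 and 1712 to 1871, and Olig1 and Olig2 rose. Astrocyte and radial glia markers (10 of 10) summed to 40168 to 49037 in WT CSPG and 46706 to 51769 in KO CSPG, and 0 passed the test. The part of these cells in the lower values of Lama5, Lamc1 and Nid2 was not tested. Fibroblast and meningeal markers (4 of 12) summed to 578 in WT CSPG replicate C and 515 in KO CSPG replicate C, the lowest of each group, and to 991 and 1278 in the 2 replicates B, the highest. Replicate B was also highest and replicate C lowest within each group for Nid1 and for Hspg2, and the part of those cells in that spread was not tested. Choroid plexus markers (3 of 8) summed to 3999 in WT CSPG replicate D and to 162 to 1283 in the other 3 WT CSPG libraries.

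Of 77 other genes listed with the basement membrane and its receptors, 53 had a row and 4 passed the test. Among 21 collagens and associated proteins, 16 had a row, 1 rose and 1 fell, with a median log2 fold change of -0.09. Sparc, a collagen-binding protein with the highest level per length of its list, fell from 1687 ± 91.5 to 1447 ± 101 (log2 fold change -0.22, SE 0.05, adjusted p = 0.011). Smoc1, a calcium-binding matrix protein of the same family, rose from 272 to 336 (log2 fold change 0.31, adjusted p = 0.010). Over all genes, 2.88% passed the test, 1.79% with lower and 1.09% with higher values in KO CSPG. Col15a1, a collagen of the outer basement membrane zone, had the largest fold change of that list, 0.37, and did not pass (adjusted p = 0.295).

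Receptors on the cell surface had 12 of 16 genes with a row and a median log2 fold change of -0.03. Sdc2, a heparan sulphate proteoglycan, fell from 684 to 601 (log2 fold change -0.18, adjusted p = 0.042), and none of the other 11 passed. The call on Sdc2 held only without WT CSPG replicate D or KO CSPG replicate D among the 8 fits that left out 1 library, and was lost in the other 6, whereas those on Sparc and Smoc1 held in all 8. The call on Sdc2 was also lost under upper-quartile scaling and in the fit with the replicate block, which left Pomk, Sparc and Smoc1. Sdc3, a related proteoglycan, had the highest level per length of that list, and Gpc4, a glypican, the largest log2 fold change, -0.24 (adjusted p = 0.228). Itgb1, the beta subunit of the laminin-binding integrins, had a log2 fold change of -0.00, and its partner Itga6 one of -0.04.

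The enzymes that build the laminin-binding sugar of dystroglycan had 14 of 16 genes with a row and a median log2 fold change of 0.05. Pomk, the kinase that phosphorylates mannose on that chain, rose from 479 to 543 (log2 fold change 0.18, adjusted p = 0.047), and the other 13 did not pass. The call on Pomk was lost in each of the 8 fits that left out 1 library. Of the dystrophin complex, which ties dystroglycan to actin, 9 of 13 genes had a row and 0 passed limma at the adjusted threshold or at an unadjusted p under 0.05. Utrn, the dystrophin relative utrophin, had the largest log2 fold change of that list, 0.14, and Dtna the highest level per length. Of 5 agrin signalling genes, Lrp4, the agrin receptor (log2 fold change 0.07), and Dok7 (-0.10) had a row, 0 passed either threshold, and Musk, Rapsn and Prss12 had no row.

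**Figure D5:**
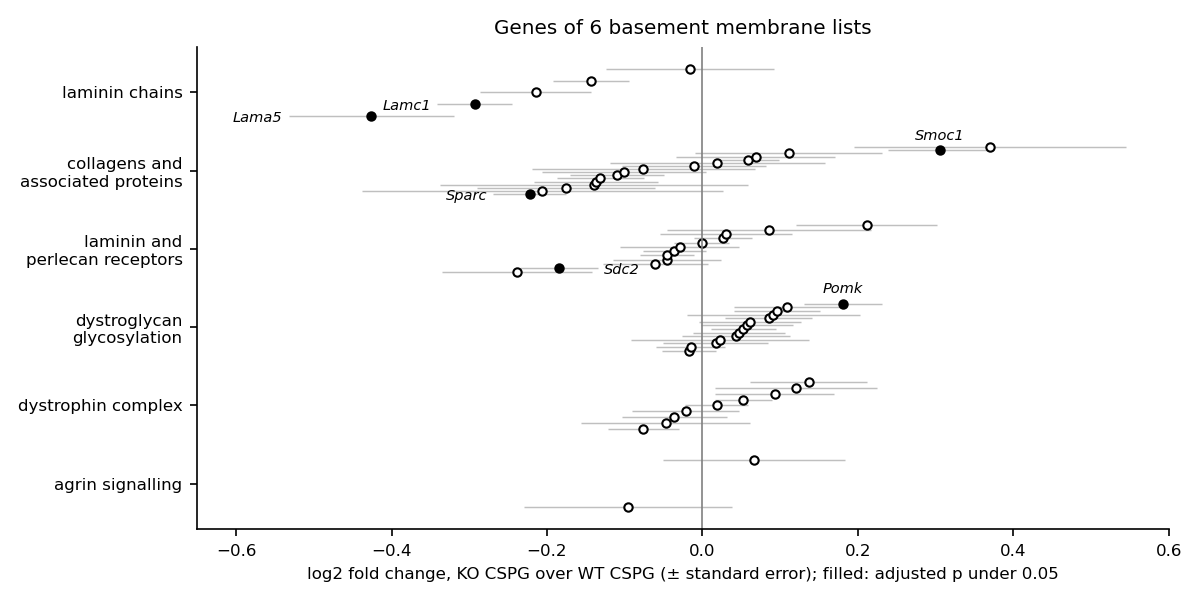
Log2 fold change, KO CSPG relative to WT CSPG, with its standard error, for every gene with a row in 6 lists, with filled symbols for an adjusted p under 0.05. Filled symbols besides Lama5 and Lamc1 are Sparc at -0.22, Sdc2 at -0.18, Pomk at 0.18 and Smoc1 at 0.31.

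Promoter sequence is shown for 3 of the genes, chosen as the alpha chain that was lower in KO CSPG (Lama5), the gene with the highest level (Agrn) and a beta chain whose window lacks the motif (Lamb2). Windows of 250 bases before a RefSeq start (GRCm38.p6) were found for 8 of the 10 genes, and Lamc1 and Nid2 had none. A RefSeq start can differ from the gene ends given above. The Lamb2 window ends at 108479861, past the gene start of 108479736, so part of it lies within the gene. Windows of Lamb1, Hspg2 and Dag1 also reach into the gene, and that of Lama2 and a second of Agrn lie inside it. Capitals mark the GC box, GGGCGG or its reverse complement CCGCCC. Sequences run 5′ to 3′ on the strand of the gene.
Lama5, chr2:180225860-180226109, minus strand: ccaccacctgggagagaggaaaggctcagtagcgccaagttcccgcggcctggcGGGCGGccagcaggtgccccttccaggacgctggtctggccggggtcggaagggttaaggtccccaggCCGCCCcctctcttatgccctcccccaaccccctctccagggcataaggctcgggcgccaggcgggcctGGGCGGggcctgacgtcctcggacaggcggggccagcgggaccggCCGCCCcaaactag
Agrn, chr4:156197489-156197738, minus strand: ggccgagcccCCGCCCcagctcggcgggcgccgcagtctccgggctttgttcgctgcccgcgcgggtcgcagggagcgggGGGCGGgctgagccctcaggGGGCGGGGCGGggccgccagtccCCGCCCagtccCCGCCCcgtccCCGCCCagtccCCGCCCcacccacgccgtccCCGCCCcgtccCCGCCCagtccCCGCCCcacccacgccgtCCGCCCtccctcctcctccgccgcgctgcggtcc
Lamb2, chr9:108479612-108479861, plus strand: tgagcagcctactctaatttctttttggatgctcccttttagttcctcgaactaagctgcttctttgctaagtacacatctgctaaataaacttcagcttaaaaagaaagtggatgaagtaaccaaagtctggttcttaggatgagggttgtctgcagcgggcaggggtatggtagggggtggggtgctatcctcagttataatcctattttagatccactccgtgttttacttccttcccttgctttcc

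The Agrn window held 12 GC boxes (a second RefSeq start of Agrn, not shown, held 2), that of Lama5 held 4 and that of Lamb2 held 0. At least 1 box was found in 8 of the 10 windows of these genes (6 of the 8 genes) and in 32.7% of 32841 windows of all genes. At least 3 boxes were found in 8.47% of all windows. The share of G and C was 83.6% in the Agrn window, 72.4% in that of Lama5 and 43.6% in that of Lamb2, against a median of 52.4%. On either strand, CCAAT was found in 4 of the 10 windows (3 of the 8 genes) and in 33.9% of all windows. TATAAA (12.4% of all windows), CACGTG (6.02%) and TGANTCA (6.75%) were found for 0 of the 8 genes. A match describes these letters only.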

How the data were processed

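Poly-A RNA of the cultures was sequenced as 50-base single reads. The authors deposited 1 table for the coated cultures, whose 8 per-library columns hold a normalised signal, reads per gene divided by a size factor of the library, with gene length and position. Genes with a mean below 40.7 are not in it. The submitters' processing notes name mm10 and DESeq2, and the aligner and counting program are not given in the sources used here. The deposited columns of the authors' own comparison (log2 fold change, standard error, Wald statistic, p-value, adjusted p-value and a flag) were not used. Columns were mapped by their library names, and 0 per-library columns were left out.

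Values were taken as log2(value + 1) and fitted with limma 3.58.1 (trend and robust) in R 4.3.3 over the 12012 genes, with Benjamini-Hochberg adjustment. Fold changes are on this scale and understate those of low genes. The script was tested on simulated data. Reads over the table were between 10099564 and 11647202 per library, and libraries of a group differed by more than sampling noise (chi-square per degree of freedom 1.83 to 2.90). Nothing in the labels says that the replicates came from separate animals, so p-values measure the spread between these libraries. Levels divide reads by the table's gene length. Named genes are the 10 genes, the laminin chains, Fibcd1, the cell type markers and, in each pathway list, the called genes, the highest and the most changed. Some genes that this rule names are not reported here. The 10 genes and the lists were chosen with earlier results of these data known. The alternatives tried were pseudocounts, a low-value filter, 2 scalings, the prior variance, a replicate block, a Y-linked covariate and leaving out each library. For the ratios of levels, exon lengths of GENCODE M21 were also tried, and they changed only that of Nid2 to Nid1. The reads given here were recovered from the normalised values, which were whole multiples of a step in each library (largest deviation from a whole read 5.46e-11). Planned count models on these recovered reads were not run.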

Additional observations from a re-analysis of the deposited data

Results flagged for a closer look

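Of 20 groups of 4 libraries examined (10 genes in 2 groups), 2 held a library far from the others by Dixon's test, and chance gives about 1 in 20. Hspg2 in WT CSPG replicate B was 123, with the other 3 WT CSPG libraries between 91.2 and 96.1. Dag1 in WT CSPG replicate A was 2842, with the other 3 between 2985 and 3001. Neither gene passed the test with or without that library.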

How the results depend on the processing

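The count of genes called was 346, with 3 of the 10 genes and 4 genes of the pathway lists among them. Without a trend in the prior variance these were 80, 1 (Nid2) and 0. With the Y-linked covariate they were 2, 0 and 0, and 825 genes and 6 of the 10 then had an unadjusted p under 0.05. That covariate leaves little of the genotype difference to estimate, since genotype accounts for 91.2% of it. In that fit the log2 fold changes were -0.80 for Lama5, -0.58 for Lamc1 (adjusted p = 0.250) and -0.73 for Nid2 (adjusted p = 0.648). They were -1.23 for Hspg2, -0.88 for Lama2 and -0.76 for Nid1, the other genes of those 6. Lamb1 (-0.19) and Lamb2 (-0.35) had unadjusted limma p of 0.260 and 0.174. Leaving out 1 library gave 186 (without KO CSPG replicate A) to 576 genes (without WT CSPG replicate D), 2 to 5 of the 10 and 2 to 4 pathway genes. Upper-quartile scaling called 360 genes, of which 182 were higher in KO CSPG (50.6%, against 37.9% in the main setting). Correlations of deviations between libraries of the same letter were -0.07 (A), 0.10 (B), 0.27 (C) and -0.01 (D). Replicates B and C matched best with their own letter in both groups and A and D in neither, which makes 4 of 8 libraries. What the letters share between genotypes is not given in the sources used here. The fit with the replicate block called 429 genes, 3 of the 10 and 3 pathway genes. Of 169 values of single genes under the alternatives, 151 kept their direction and side of the threshold, 10 lost the call, 2 gained it and 6 reversed. The reversals were of Lama2 (-0.115 to 0.0705 without 1 library) and of Nid1 (-0.0838 to 0.0809 without 1 library and 0.00627 under upper-quartile scaling). The causes of these moves were not tested. Hspg2 (mean 93.3) was not tested at a minimum mean of 100. The table holds no gene with a mean under 40.7, and 6 laminin chains have no row.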
